A study of Homo sapiens with 6 samples.

Results

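The C/EBP transcription factors are described here in HL-60, a long-established line of human promyelocytic leukaemia, with and without the antiarrhythmic drug amiodarone. The group was set by gene symbol, as CEBPA, CEBPB, CEBPD, CEBPE, CEBPG and CEBPZ, and each symbol matched 1 row of the 17911 in the expression table. RNA was sequenced in 3 libraries labelled control and in 3 libraries of cells given 10 uM amiodarone for 24 h. The labels do not say whether the controls received a vehicle, nor whether the libraries of a group came from separate cultures, so a p-value here reflects library-to-library spread alone, possibly of a technical kind. HL-60 is a single line that serves as a model of leukaemic promyelocytes and not of healthy bone marrow. The values behave like RPKM (reads scaled by gene length and by library size), although the file headers name no unit, and counts were not analysed here.

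C/EBP proteins are basic leucine zipper (bZIP) factors that bind DNA as pairs, with each other or with related factors, at sites in the promoters and enhancers of many myeloid genes. C/EBPα directs progenitors to the granulocyte and monocyte lineage and restrains division, and its gene is a recurrent target of mutation in acute myeloid leukaemia. C/EBPβ and C/EBPδ are tied to inflammatory and acute-phase transcription and to myelopoiesis under stress, C/EBPε to the late maturation of granulocytes, and C/EBPγ, a short member without an activation domain, to pairing with ATF4. CEBPZ shares the name only: it encodes a nucleolar protein of ribosome assembly with no leucine zipper.

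The letters upstream of 4 of the genes are shown because these genes moved in opposite directions, CEBPA and CEBPE down and CEBPB and CEBPG up. The sequences are RefSeq's (GRCh38.p14), 250 bases before an annotated start, 5′ to 3′ on the gene's strand. Windows were found for 5 of the 6 genes, CEBPA, CEBPB, CEBPE, CEBPG and CEBPZ. Capitals mark matches, on either strand, to 8 motifs: the CCAAT box (CCAAT), a C/EBP-type site (TTGCNNAA), the C/EBP-ATF element (TGATGNAA), the cyclic AMP element (TGACGTCA), the AP-1 site (TGANTCA), the E-box (CACGTG), the GC box (GGGCGG) and the TATA box (TATAAA).
CEBPA: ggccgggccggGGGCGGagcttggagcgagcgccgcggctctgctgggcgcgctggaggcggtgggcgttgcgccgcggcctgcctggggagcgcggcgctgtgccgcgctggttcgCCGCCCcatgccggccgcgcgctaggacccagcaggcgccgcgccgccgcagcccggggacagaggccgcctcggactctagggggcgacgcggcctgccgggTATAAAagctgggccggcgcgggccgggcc
CEBPB: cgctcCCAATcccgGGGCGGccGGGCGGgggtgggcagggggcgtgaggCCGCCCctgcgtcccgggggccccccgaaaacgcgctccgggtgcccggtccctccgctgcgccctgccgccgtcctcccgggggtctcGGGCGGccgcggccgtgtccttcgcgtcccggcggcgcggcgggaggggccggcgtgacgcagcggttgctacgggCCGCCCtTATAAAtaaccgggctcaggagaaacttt
CEBPE: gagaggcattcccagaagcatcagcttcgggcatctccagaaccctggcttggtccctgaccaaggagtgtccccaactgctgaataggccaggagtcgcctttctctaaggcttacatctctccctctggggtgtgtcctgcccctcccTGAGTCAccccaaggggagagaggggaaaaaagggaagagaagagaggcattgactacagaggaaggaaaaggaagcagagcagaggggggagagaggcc
CEBPG: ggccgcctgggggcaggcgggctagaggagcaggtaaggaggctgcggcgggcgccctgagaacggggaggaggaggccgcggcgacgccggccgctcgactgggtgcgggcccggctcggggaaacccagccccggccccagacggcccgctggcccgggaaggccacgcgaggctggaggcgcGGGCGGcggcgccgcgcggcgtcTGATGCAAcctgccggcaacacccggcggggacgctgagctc

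The CEBPA window (chr19:33302535-33302784, minus strand) held 2 GC boxes and a TATA box that begins 30 bases before the RefSeq start. The CEBPB window (chr20:50190580-50190829, plus strand), the downstream one of 2, held 5 GC boxes, 1 CCAAT box and a TATA box 29 bases before the start. The CEBPE window (chr14:23119256-23119505, minus strand) held 1 AP-1 match and no other. These windows therefore differ in build: the G and C share was 81.2% for CEBPA, 77.6% for CEBPB and 57.2% for CEBPE. It was 79.2% for the CEBPG window described next, and the median over 35116 RefSeq windows was 58%. CEBPA, which fell, and CEBPB and CEBPG, which rose, were thus alike in this share. The CEBPG window (chr19:33373863-33374112, plus strand), the second of 2, held 1 GC box and 1 C/EBP-ATF element, written TGATGCAA, 42 bases before the start. That element occurred in 3.14% of all windows, the AP-1 site in 6.57%, the TATA box in 10.7%, the CCAAT box in 32% and the GC box in 42.6%. The C/EBP-type site, the cyclic AMP element and the E-box occurred in 9.05%, 1.65% and 6.34% of all windows and matched none of these 4. For CEBPB and CEBPG the window shown was chosen with its matches known: the other CEBPB window held 4 GC boxes and no TATA or CCAAT box, and the other CEBPG window 2 CCAAT boxes and no C/EBP-ATF element or GC box. A match is a description of the letters, and binding was not measured. GENCODE 29 places the outermost start of each gene upstream of the RefSeq start shown, by 30 bases for CEBPA, 96 for CEBPB, 361 for CEBPE and 783 for CEBPG.

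After amiodarone, the 2 lineage and maturation genes CEBPA and CEBPE were lower, and CEBPB, CEBPD and CEBPG were higher. All 6 genes passed the filter on low values. Limma on log2(value + 1), adjusted over all 11445 tested genes, called 5 of the 6, which is close to the 78.3% called among all tested genes, and 5 of 6 also had groups that did not overlap, against 79.3% overall. Of the 6 genes 3 were called higher (33.5% of all tested genes) and 2 lower (44.8%). The same 3 lay wholly above the controls (34.0% of all tested genes) and the same 2 wholly below (45.3%). A call by itself therefore sets the C/EBP genes apart from few others, and the sizes and directions are what the following values describe.

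CEBPA, the founding member and granulocyte lineage factor, had the highest level of the 6 in controls. Its RPKM-like value was 250.64, 260.2 and 256.43 in the control libraries and 95.37, 94.08 and 91.79 in the amiodarone libraries. All 3 amiodarone libraries lay far below all 3 controls, and the spread within each group was small (coefficient of variation 1.88% and 1.93%). The mean fell by 63.3%, from 256 ± 4.82 to 93.7 ± 1.81 (SD, n = 3 per group), which is -1.44 as a log2 fold change (SE 0.026; limma, adjusted p = 6.88e-12). CEBPA was the 1 C/EBP gene called at 2-fold lower or more on this scale, as were 2.60% of tested genes (5.15% in either direction), and 55 of the 11445 tested genes had a more negative log2 fold change. CEBPA is a gene without introns at chromosome 19, 33299934 to 33302564 on the minus strand (GENCODE 29, GRCh38). Annotated antisense transcripts lie opposite 25.1% (AC008738.3) and 18.3% (AC008738.5) of its exonic bases, and whether reads were counted by strand is not given in the sources used here. In bulk RNA, fewer cells expressing a gene and less RNA per cell cannot be told apart.

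CEBPE, which is needed for the late steps of granulocyte maturation, was the other gene that fell. Its value was 116.78, 119.51 and 119.13 in controls and 87.79, 81.3 and 79.97 after amiodarone. The groups did not overlap, and amiodarone replicate 1 was the highest of its group. The mean fell by 29.9%, from 118 ± 1.48 to 83.0 ± 4.18, a log2 fold change of -0.51 (SE 0.035; limma, adjusted p = 1.69e-07). The gene lies at chromosome 14, 23117304 to 23119616 on the minus strand.

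CEBPB, a factor of inflammatory and emergency myeloid transcription, rose. Its value was 120.05, 125.26 and 126.3 in controls and 185.68, 181.21 and 173.34 after amiodarone. Each amiodarone library exceeded each control. The mean rose 1.45-fold, from 124 ± 3.35 to 180 ± 6.25, a log2 fold change of 0.54 (SE 0.031; limma, adjusted p = 4.65e-08), and 10.7% of tested genes had a larger one. CEBPB is likewise without introns (chromosome 20, 50190734 to 50192689, plus strand), and CEBPB-AS1 lies opposite 11.8% of its exonic bases.

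CEBPD, an acute-phase member, had a smaller rise. Its value was 44.26, 46.47 and 45.9 in controls and 54.09, 55.02 and 52.74 after amiodarone, with no overlap. The mean rose 1.18-fold, from 45.5 ± 1.15 to 54.0 ± 1.15, a log2 fold change of 0.24 (SE 0.031; limma, adjusted p = 3.01e-05). Scaling to equal sums gave CEBPD a log2 fold change of 0.15, still called (limma, adjusted p = 8.10e-04), so that its size, but not its call, depends on the scaling.

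CEBPG, which encodes the short partner of ATF4, was the lowest of the 6 in both groups. Its value was 21.81, 22.38 and 22.21 in controls and 30.97, 29.86 and 29.09 after amiodarone. The groups were apart by more than the spread within either. The mean rose 1.35-fold, from 22.1 ± 0.293 to 30.0 ± 0.945, a log2 fold change of 0.42 (SE 0.035; limma, adjusted p = 8.40e-07). The gene (chromosome 19, 33373330 to 33382686, plus strand) lies on the same chromosome as CEBPA and moved the opposite way.

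CEBPZ, the ribosome assembly gene, was the 1 member not called. Its value was 33.02, 30.06 and 31.8 in controls and 32.7, 34.12 and 34.22 after amiodarone, so that amiodarone replicate 1 lay within the control range. The means were 31.6 ± 1.49 and 33.7 ± 0.85, a log2 fold change of 0.09 (SE 0.039; limma, adjusted p = 0.0579). The call turned with the library set and the scaling: the adjusted p was 0.0224 without control replicate 1 and 0.0382 without amiodarone replicate 1 (limma), and the log2 fold change ran from 0.00039 with scaling to equal sums to 0.21 with quantile normalization. CEBPZ lies at chromosome 2, 37201612 to 37231713 on the minus strand. CEBPZOS, a small mitochondrial protein gene that lies opposite 9.67% of its exonic bases, rose from 61.7 ± 4.92 to 74.3 ± 5.25 (limma, adjusted p = 0.00189).

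**Figure D1:**
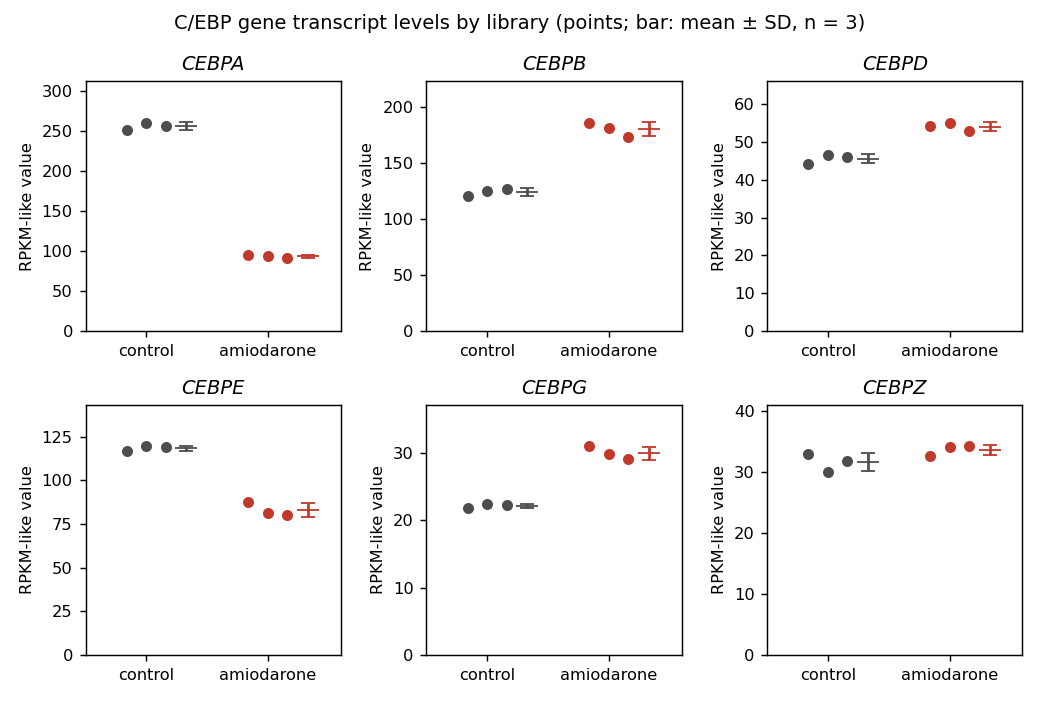
RPKM-like value (y axis, from 0) of each C/EBP gene in the 3 control and the 3 amiodarone libraries (points), with the group mean ± SD beside them. CEBPA and CEBPE lie lower after amiodarone, CEBPB, CEBPD and CEBPG higher, and the CEBPZ groups overlap.

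The order of the levels changed at the top. In controls CEBPA stood 2.06 times above CEBPB, followed by CEBPE, CEBPD, CEBPZ and CEBPG. After amiodarone CEBPB stood first, 1.92 times above CEBPA, and the order below them was again CEBPE, CEBPD, CEBPZ and CEBPG. No neighbours in either order had overlapping ranges, but the closest pair, CEBPB and CEBPE in controls, differed by 1.05-fold, with means of 124 ± 3.35 and 118 ± 1.48. After amiodarone CEBPA and CEBPE had come within 1.13-fold of each other. These comparisons between genes are of values per kilobase and depend on the gene lengths the submitters used, for which the sources used here give no value.

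The make-up of the C/EBP transcript pool moved with this. CEBPA made up 42.7%, 43.1% and 42.6% of the summed RPKM-like level of the 6 genes in the control libraries and 19.6%, 19.8% and 19.9% in the amiodarone libraries. CEBPB went the other way, from 20.5%, 20.7% and 21.0% to 38.2%, 38.1% and 37.6%. A share does not change with any factor that scales a whole library, so the exchange between these genes does not rest on such a factor. It does rest on which genes are summed: with DDIT3 added, the CEBPB gain was 10.2 percentage points in place of 17.2 and the CEBPE loss -5.27 in place of -2.34. The share of CEBPD went from 7.62% ± 0.0749 to 11.4% ± 0.233 and that of CEBPG from 3.71% ± 0.0138 to 6.32% ± 0.0437, whereas CEBPE went from 19.8% ± 0.0669 to 17.5% ± 0.491. CEBPZ held 5.3% ± 0.326 and 7.1% ± 0.355. Each of the 6 differences had an exact two-sided permutation p of 0.1, the smallest that 3 against 3 libraries allow, and 0.1 after adjustment over the 6, so this design cannot reach 0.05. The summed level itself was 597 ± 9.45 in controls and 474 ± 12.8 after amiodarone, 0.794 times as high (exact permutation p = 0.1).

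**Figure D2:**
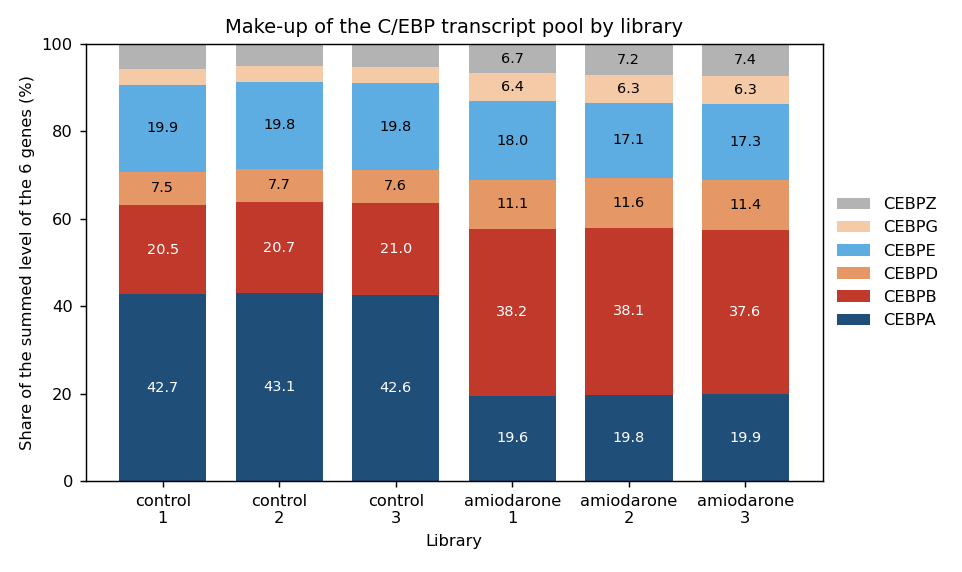
Share of each C/EBP gene in the summed RPKM-like level of the 6 genes (stacked, y axis in %) in each library. The CEBPA share is 42.6% to 43.1% in controls and 19.6% to 19.9% after amiodarone, and the CEBPB share 20.5% to 21.0% and 37.6% to 38.2%.

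Ratios within a library gave the same picture pair by pair. The CEBPA to CEBPB ratio was 2.07 ± 0.031 in controls and 0.521 ± 0.0081 after amiodarone, and the CEBPA to CEBPG ratio 11.6 ± 0.068 and 3.13 ± 0.043. CEBPA and CEBPE, both lower, did not fall alike: their ratio went from 2.16 ± 0.016 to 1.13 ± 0.038. Nor did the 3 rising genes rise alike, as the CEBPB to CEBPD ratio went from 2.72 ± 0.029 to 3.34 ± 0.082. CEBPB and CEBPG stayed closest, with ratios of 5.6 ± 0.091 and 6.01 ± 0.056. Of the 15 pairs compared, 14 had no overlap between the groups and an exact two-sided permutation p of 0.1 (0.107 adjusted over the 15), and CEBPD to CEBPZ had 0.2.

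Among the other bZIP genes whose products can pair with C/EBP proteins, DDIT3 had the largest log2 fold change, 2.58, though not the highest level. It encodes CHOP, a C/EBP relative whose pairs bind classical C/EBP sites poorly. DDIT3 was at 19.88, 18.05 and 20.18 in controls and at 120.87, 120.8 and 120.79 after amiodarone. Against CEBPA in the same library, this put DDIT3 at 0.0758 ± 0.0056 times in controls and 1.29 ± 0.025 times after amiodarone, so that the order of these genes turned round. Against CEBPB the ratio was 0.156 ± 0.011 and 0.671 ± 0.023. MARS lies opposite 27.2% of the exonic bases of DDIT3. Of 22 tested genes in the list of bZIP partners, 15 were called higher and 4 lower, with a median log2 fold change of 0.23. Over all 11445 tested genes 33.5% were called higher and 44.8% lower, with a median of -0.06.

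NFIL3, a bZIP repressor, rose from 11.4 ± 0.229 to 28.5 ± 0.321 (limma, adjusted p = 1.90e-10), the largest log2 change in that list after DDIT3. ATF5 rose 1.97-fold (82.7 ± 1.5 to 163 ± 7.73), although NUP62 lies opposite 21.2% of its exonic bases. ATF4, the amino acid response factor and partner of C/EBPγ, was abundant and rose by less, from 497 ± 4.16 to 568 ± 5.46 (limma, adjusted p = 5.14e-06). ATF3 rose 1.92-fold from a low level (2.29 ± 0.211 to 4.4 ± 0.332), JUN 1.19-fold and FOS 1.22-fold. NFE2L2 rose 1.84-fold, and a transcript annotated on the same strand shares 17.6% of its exonic bases. The 4 that fell were TEF (3.6 ± 0.046 to 2.16 ± 0.075), HLF, CREBZF and FOSL1, of which TEF and HLF are of the PAR group of bZIP factors. HLF passed the filter through the controls alone, which fixes its direction.

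Genes whose products control C/EBP proteins after transcription were more often lower than higher. Of 24 tested, 15 were called lower, 4 higher and 5 neither, where 44.8% of all tested genes were lower and 33.5% higher. The median log2 fold change was -0.11. With quantile normalization 10 were lower and 6 higher, with a median of -0.031. The 44.8% and 33.5% are from the fit as reported, and these shares also move with the setting. TRIB1, a pseudokinase that with the ubiquitin ligase COP1 marks C/EBPα for destruction, fell from 55.2 ± 0.386 to 39.2 ± 1.17 (limma, adjusted p = 8.93e-08). Its relative TRIB2 was at 6.97 ± 0.264 and 7.53 ± 0.332 and COP1 at 21.2 ± 1.07 and 20.3 ± 1.17, neither called, and the sign for COP1 turned with quantile normalization. TRIB3, listed for its family, went the other way, from 53.3 ± 0.371 to 269 ± 0.965. The destruction of C/EBPα described for TRIB1 is not implied for TRIB3. The kinase gene CDK2 fell from 30.7 ± 0.559 to 11.9 ± 0.35, and CDK1 and CDK4 fell too, with TSPAN31 opposite 43.2% of the exonic bases of CDK4. CALR, whose product calreticulin can bind CEBPA mRNA, had a log2 fold change of -0.77, and CELF1, another binder of C/EBP mRNAs, one of -0.11. The call of CELF1 ended with scaling by the median of ratios and with quantile normalization. FBXW7, a ubiquitin ligase subunit, rose from 6.25 ± 0.437 to 8.37 ± 0.378. Protein levels were not measured.

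Other transcription factors of myeloid cells were divided, with 10 of 31 tested genes called higher, 16 lower and a median log2 fold change of -0.13 (-0.031 with quantile normalization). These counts lie near the 33.5% and 44.8% of all tested genes. SPI1, which encodes PU.1, a frequent neighbour of C/EBP factors at myeloid genes, was at 334.52, 339.36 and 338.2 in controls and 460.99, 437.48 and 418.51 after amiodarone (limma, adjusted p = 9.05e-07). RUNX1, which acts upstream of CEBPA in blood development, went from 33.2 ± 0.631 to 19.6 ± 0.32 (limma, adjusted p = 6.51e-09). PU.1 and RUNX1 transcripts thus moved in opposite directions, both without overlap. E2F1, a cell cycle factor that C/EBPα represses, fell from 41.4 ± 0.463 to 13.3 ± 0.954, and MYC from 268 ± 4.71 to 158 ± 4.61. The homeobox gene HHEX fell from 40.4 ± 1.64 to 20.3 ± 0.341. EGR2, a monocyte factor, rose 4.25-fold from 1.94 ± 0.051, BCL6 2.24-fold, KLF6 2.04-fold and FLI1 1.48-fold. GFI1, a transcriptional repressor, was slightly lower (76.0 ± 1.11 to 69.1 ± 0.685, log2 fold change -0.14), with the sign turned under quantile normalization. The rise of MYB (112 ± 0.873 to 124 ± 3.64) was not called with scaling to equal sums. IRF8, a monocyte factor, had values of 1.1 or less in every library and was not tested.

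The next 4 lists hold genes tied to single C/EBP factors in general knowledge of the field. Membership is background, no binding was measured, and several genes answer to more than 1 factor. The lists were written with earlier results of these data known. Each is described by its counts and median. Of all tested genes 33.5% were called higher and 44.8% lower, and their median log2 fold change was -0.06.

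Genes of the promyelocyte program and of growth factor receptors, tied to C/EBPα, were 10 lower and 7 higher of 18 tested, with a median log2 fold change of -0.36. The primary granule enzyme gene MPO, the most abundant of them, was at 5913.65, 5975.33 and 5998.06 in controls and 2646.21, 2596.34 and 2597.74 after amiodarone. CTSG (133 ± 4.15 to 70.1 ± 0.942) and AZU1 (231 ± 5.6 to 122 ± 4.46), which encode granule serine protease family members, and PRTN3 (log2 fold change -2.13) fell as well. CSF3R, the receptor gene for G-CSF and a classical C/EBPα target, fell by less, from 74.4 ± 0.616 to 57.6 ± 0.874 (limma, adjusted p = 2.65e-07). Not all receptors followed: CSF2RA, a GM-CSF receptor subunit gene, rose 1.87-fold (11.2 ± 0.8 to 21.0 ± 0.829). SERPINB1, an inhibitor of granule proteases, rose 1.79-fold, CST7 1.19-fold and LYZ 1.2-fold, the last with an antisense transcript opposite 34.0% of its exonic bases. CSF1R, the receptor gene of monocyte growth factor, was at 1.26 or less in every library and not tested.

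Genes of later granulocyte stages, tied to C/EBPε, were 15 higher and 2 lower of 21 tested, with a median log2 fold change of 0.44 (0.21 with no filter and 0.67 with a minimum value of 5), while CEBPE itself fell. Those higher were mostly genes of the oxidase and of surface receptors. CYBB, the gene of the oxidase's catalytic subunit, was at 23.62, 21.73 and 22.21 in controls and 55.2, 54.29 and 54.41 after amiodarone, 2.43-fold higher. MCEMP1 rose 3.54-fold and FCAR, the IgA receptor gene, 2.24-fold. Granule protein genes differed among themselves, and those given next were named after their values were seen. LTF was at 0.13 ± 0.035 and 0.093 ± 0.025, LCN2 was listed at 0 in all 3 controls, and CAMP was at 2.22 ± 0.436 and 1.92 ± 0.348 without a call. In contrast CHI3L1 rose from 249 ± 2.98 to 353 ± 3.73, ORM1 from 29.5 ± 0.274 to 63.1 ± 2.21 and MMP9 from 20.5 ± 0.883 to 37.3 ± 2.44. PRG2, an eosinophil granule gene, fell from 861 ± 6.07 to 297 ± 4.47, with another gene on the same strand over 43.0% of its exonic bases, and EPX fell from 1.18 ± 0.079 to 0.66 ± 0.066. Of the 21 tested genes 2 passed the filter through the amiodarone libraries alone and 1 through the controls alone, which fixes their direction, and DEFA1 shares reads with near-identical copies.

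Inflammation genes tied to C/EBPβ and C/EBPδ were almost uniformly higher. Of 28 tested, 27 were called higher and 1 lower, the median log2 fold change was 0.93 (1.59 with a minimum value of 5, where 19 were called higher), and 12 were higher by 2-fold or more, as were 2.55% of all tested genes. The 1 that fell was SOCS3, a feedback inhibitor of cytokine signalling (1.76 ± 0.112 to 1.17 ± 0.075). The genes with the smallest adjusted p were the chemokine genes CXCL8, CCL2 and CCL3 and the formyl peptide receptor gene FPR1, with log2 fold changes of 2.9, 2.28, 2.91 and 2.41, and antisense transcripts lie opposite 74.6% of the exonic bases of CCL3. Named after their values were seen, the calcium-binding alarmin genes S100A8 (56.6 ± 1.65 to 172 ± 5.35) and S100A9 (240 ± 8.47 to 728 ± 23.6) rose 3.04-fold and 3.03-fold, S100A12 5.61-fold and IL1B 3.95-fold. Of the 28 tested genes 5 passed the filter through the amiodarone libraries alone, which fixes their direction, and all 5 are among the 27 called higher. The median of 0.93 includes these 5. IL12B, named after its values were seen, is among them and also among the 12 higher by 2-fold or more. The listed symbols SAA1 and SAA2 matched the same row, so they stand for 1 gene here, which was not tested.

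Genes of the amino acid stress response, tied to ATF4 and C/EBPγ, were 24 higher and 12 lower of 39 tested, with a median log2 fold change of 0.22. CEBPG is itself 1 of the 24. SLC7A11, the cystine transporter gene, was at 6.72, 6.25 and 6.31 in controls and 23.03, 25.06 and 24.27 after amiodarone, and its partner SLC3A2 had a log2 fold change of 1.4. PPP1R15A rose 3.78-fold, and GDF15 was at 0.13 or less in controls, listed at 0 in 1 of them, and at 7.42 or more after amiodarone. GDF15 passed the filter through the amiodarone libraries alone, which fixes its direction and its place among the 24. Among the serine synthesis genes PSPH, named after its values were seen, rose from 7.83 ± 0.37 to 11.4 ± 0.172. PSAT1 and PHGDH, of the same pathway, fell, with log2 fold changes of -0.64 and -0.51. The amino acid transporter genes SLC7A1 (31.3 ± 0.4 to 21.1 ± 0.3) and SLC7A5 (60.8 ± 1.29 to 44.1 ± 1.11) fell too. The list thus split between members, with a rise of CEBPG that was smaller than that of SLC7A11.

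Nucleolar genes of ribosome assembly, listed as background to CEBPZ, were mostly lower while CEBPZ did not fall. Whether each of them works with the CEBPZ protein was not tested. Of 38 tested, 30 were called lower and 4 higher, with a median log2 fold change of -0.53. Over all tested genes 44.8% were called lower and 33.5% higher. Of the closest relatives by name and fold, NOC2L fell from 125 ± 3.14 to 82.0 ± 1.35 and NOC4L from 36.7 ± 1.66 to 20.7 ± 0.263, whereas NOC3L was at 10.9 ± 0.594 and 11.9 ± 0.582 and was not called (limma, adjusted p = 0.069). EBNA1BP2 (44.5 ± 1.75 to 19.0 ± 0.454, with CFAP57 opposite 18.8% of its exonic bases) and MYBBP1A (20.2 ± 0.28 to 9.54 ± 0.038) fell by more than 2-fold, and LAS1L from 32.7 ± 0.259 to 18.7 ± 0.576. Those called higher were SDAD1, GNL2, NSA2 and RPF1, by 1.2-fold or less. The calls of NSA2 and RPF1 ended with scaling to equal sums. That of RPF1 (limma, adjusted p = 0.0239) also ended with a replicate block (0.0508) and without control replicate 1 (0.0587), control replicate 3 (0.103) or amiodarone replicate 2 (0.0545). In addition, FAM169A lies opposite 51.2% of the exonic bases of NSA2.

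**Figure D3:**
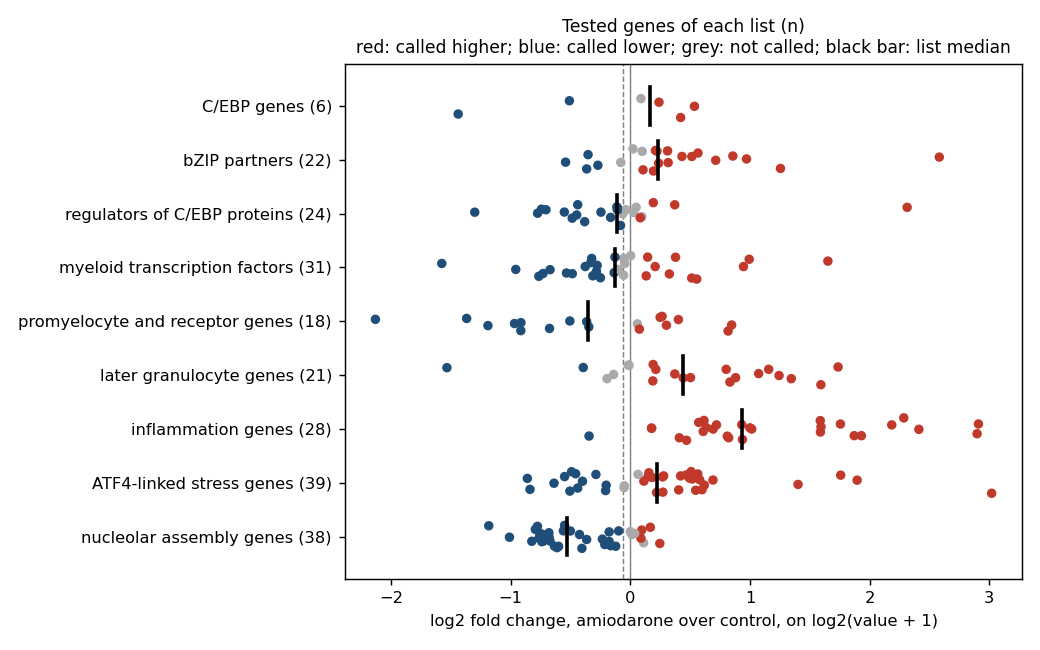
Log2 fold change on log2(value + 1), amiodarone over control (x axis), of each tested gene (points) in the C/EBP group and in 8 lists around it, with the number tested in brackets and each list's median as a black bar. The dashed line is the median of all tested genes (-0.06), and the inflammation list has its median at 0.93 and the nucleolar list at -0.53.

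The groups differed in whole-library measures without overlap. Genes that reached a value of 1 numbered 11129 to 11157 in controls and 11306 to 11323 after amiodarone, and the values summed to 534486 to 539030 and 568654 to 574483. Read as RPKM, the spacing of the lowest values corresponds to some 17800000 to 18250000 reads in controls and 16250000 to 16350000 after amiodarone. Their part in the C/EBP results was not tested beyond the scalings given. That depth is an estimate, since 42.8% to 54.3% of low values lay within 0.15 of a whole step. Markers of the labelled cell were present, among them MPO, PRTN3 and CD33 (91.7 ± 2.12 and 95.5 ± 3.55), with CD14 under 1. Of the 10 markers in that list 8 were tested, of which 6 were called lower and 1 higher. Markers of other cells were mixed. CD3E (0.13 ± 0.056 in controls) and EPCAM, listed at 0 in all 3 controls, were near 0, but the B cell receptor genes CD79A (11.0 ± 0.427 and 9.26 ± 0.384) and CD79B (11.2 ± 0.122 and 12.9 ± 0.868) and the endothelial and myeloid adhesion gene PECAM1 (15.2 ± 0.225 and 15.2 ± 0.962) were expressed. In the T and NK cell list, 4 of 9 genes were tested and 3 were called higher, NKG7, KLRD1 and CD3G, with a summed value of 130 to 135 in controls and 181 to 190 after amiodarone, most of it from NKG7. CD3G passed the filter through the amiodarone libraries alone, which fixes its direction. Of the 6 B cell, 12 erythroid and megakaryocyte and 11 epithelial and stromal markers, 2, 1 and 3 were tested, with summed values of 23.5 to 24.0 and 22.4 to 23.7, 2.93 to 3.54 and 2.08 to 2.94, and 18.1 to 18.7 and 16.3 to 18.7 in controls and after amiodarone. The part of other cell types in the C/EBP results was not tested.

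The size of the C/EBP changes was compared over 15 other settings. CEBPA ranged from -1.53 to -1.38 in log2 fold change, CEBPE from -0.60 to -0.37, CEBPB from 0.45 to 0.64, CEBPG from 0.33 to 0.53 and CEBPD from 0.15 to 0.35. Each of these 5 genes was called in the same direction in all 15, with adjusted p of 8.10e-04 or less (limma).

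**Figure D4:**
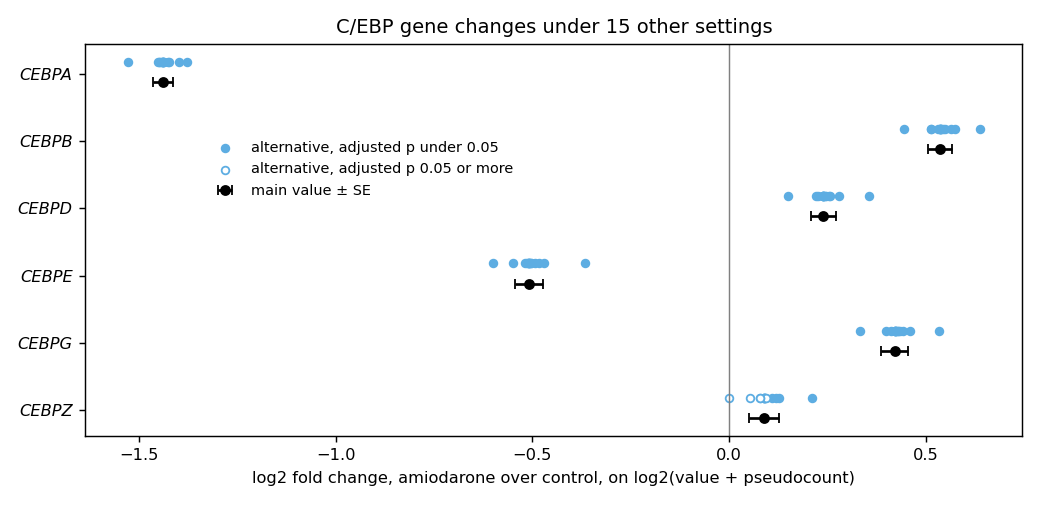
Log2 fold change of each C/EBP gene (x axis) as reported (black, ± SE) and under 15 other settings of scaling, filter, pseudocount, variance model, replicate block and libraries left out (blue; open where the adjusted p is 0.05 or more). CEBPA, CEBPB, CEBPD, CEBPE and CEBPG keep their sign and call, and CEBPZ has open points near 0.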

How the data were processed

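The samples are 3 control RNA libraries of HL-60 and 3 of the line given 10 uM amiodarone for 24 h. The library kit keeps strand, per the labels' protocols. Tools in the submitters' processing notes are STAR 2.5.3a, fastp 0.23.4 and featureCounts, and the build there is GRCh38.p12; no role or order is stated. The deposited values behave like RPKM and were used as the authors deposited them. Their sums were 534486 to 574483 per library, and whole reads were not recovered. 26 symbols turned into dates were restored by gene ID. Positions and overlaps came from GENCODE 29 for 17187 rows.

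The filter kept the 11445 genes that reached 1 in 3 or more libraries and left 6466 rows untested. On log2(value + 1), a linear model per gene was fitted in limma 3.58.1 (R 4.3.3) with a trended prior variance, with Benjamini-Hochberg adjustment over all tested genes and a threshold of 0.05. Log2 fold changes are on this scale, which understates changes of low genes. A fold divides one group's mean deposited value by the other's, and SD is over 3 libraries. Shares and ratios between C/EBP genes used a two-sided exact permutation test (scipy 1.17.1). The fit was tested on simulated data.

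The C/EBP members, the lists and the tests were chosen with earlier results of these data known. Named genes are the 6 members, a set of partners and regulators, up to 4 genes per direction with the smallest adjusted p in each list, and the 3 genes with the nearest pattern to each member. A gene that this rule names in the later granulocyte list is not reported here. Any other gene named is marked as chosen after its values were seen, or stands for a cell type, a neighbour or an overlap.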

Additional observations from a re-analysis of the deposited data

How the results depend on the processing

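CEBPA, CEBPB, CEBPD, CEBPE and CEBPG kept direction and call under all 15 alternatives, and the 6 shares kept direction under theirs. With DDIT3 added to the sum, the share changes moved from 3.75 to 1.68 points for CEBPD, 2.61 to 1.45 for CEBPG and 1.81 to 0.531 for CEBPZ, with those of CEBPB and CEBPE as given above. CEBPZ passed the threshold with scaling by the median of ratios (log2 fold change 0.13) and quantile normalization (0.21), and ranged from 0.054 to 0.12 when 1 library was left out. Same-numbered libraries did not vary together, as their deviations from the group means correlated at -0.15, -0.02 and -0.02. This cannot tell whether equal numbers mark a shared culture or day, which the labels do not say. The fit with a replicate block called 3748 genes higher and 5022 lower, against 3832 and 5127, and CEBPA had an adjusted p of 1.69e-09 (limma). It changed no call of a C/EBP gene. Median log2 fold changes of the lists kept their sign, but 52 of 120 moved by more than the spread between libraries: bZIP partners 0.15 to 0.29, regulators -0.20 to -0.031, myeloid factors -0.22 to -0.031, promyelocyte genes -0.44 to -0.27, later granulocyte genes 0.21 to 0.67, inflammation genes 0.77 to 1.59, stress genes 0.14 to 0.32 and nucleolar genes -0.61 to -0.42. Scaling moved the median of all tested genes by -0.08 (equal sums) to 0.05 (quantile normalization). Over the 15 alternatives, which also differ in the number of genes tested, 2764 to 4776 genes were called higher and 4177 to 5908 lower. A list count under another setting therefore stands beside another whole-table count. With equal sums the genes called higher fell to 2 among C/EBP regulators and to 2 among nucleolar genes, and 4 later granulocyte genes were lower. A minimum value of 5 left 2 bZIP partners, 1 later granulocyte gene and 0 inflammation genes lower, in fewer tested genes, and leaving out 1 library gave 1 to 3 later granulocyte genes lower. The sign turned with equal sums for CD33 (-0.031), CD3D (-0.029), LRIF1 (-0.019) and RPS6KA1 (-0.0076), with quantile normalization for CD3D (-0.040), COP1 (0.034), GFI1 (0.013), PECAM1 (0.069) and SH2D3A (-0.0055), and with the median of ratios for PECAM1 (0.029). When 1 library was left out it turned for CD3D (-0.098 to 0.12), KRT8 (-0.082 to 0.10) and PECAM1 (-0.047 to 0.039). The cause was not tested. A test for count data was not run, since the values are not counts. Depth is an estimate, so no counting interval is given.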

Other observations

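The genes whose pattern over the 6 libraries lay nearest to each C/EBP gene were listed by the root mean square difference of log2(value + 1), centred on each gene's mean. This is a description with no test, in which genes with a like fold change come first. For CEBPA they were CAD, a pyrimidine synthesis gene (0.022), the DNA polymerase gene POLE (0.029) and the mitophagy receptor gene BNIP3 (0.035). Within CEBPA's pattern POLE went from 17.2 ± 0.365 to 5.9 ± 0.071. For CEBPE they were RANGAP1, a nuclear transport gene (0.013), MFSD5 (0.014) and NDST1, a heparan sulfate enzyme gene (0.016).

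For CEBPB the nearest were the glutathione peroxidase gene GPX1 (0.014), the adaptor subunit gene AP3S2 (0.015) and TANGO2 (0.022), and GPX1 went from 337 ± 8.96 to 494 ± 17. For CEBPD they were the AP-1 gene JUN (0.015), the tetraspanin gene CD63 (0.016) and ZNF333 (0.016). For CEBPG they were the tetraspanin gene CD37 (0.014), the phosphatase gene SYNJ1 (0.015) and GPSM3 (0.016). For CEBPZ they were PACRGL (0.0077), LRIF1 (0.013) and SH2D3A (0.015), none of them called.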
